A study of Mus musculus with 9 samples.

Results

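The genes described here run glycolysis, the pentose phosphate pathway and the response to low oxygen. They are 35 listed mouse genes, taken by symbol from the array's probe annotation, and each is represented by the brightest probeset, by mean over the 9 arrays, that carries its symbol and no other. By that rule 30 of the 35 were measured, among 30142 named genes on the array. Gpi1, Eno1 and G6pdx had no probeset under their symbol, and Pfkfb2 and Tkt were on probesets shared with other symbols, so these 5 genes were not analysed here. The RNA came from LSK cells, marrow cells that lack lineage markers and carry Sca-1 and c-Kit, a population that includes the blood stem cells and first progenitors. The knockout (KO) group was 4 mice of genotype Abi1(-/-);Tg (Mx1-cre(+)), and the wild-type (WT) group was 5 mice of genotype Abi1(fl/fl);Tg (Mx1-cre(-)). Both groups began with floxed Abi1, both received 3 injections of poly(I:C) at 8 to 9 weeks of age, and marrow was taken at 12 to 14 weeks. Abi1 encodes an adaptor of the actin-regulating WAVE complex. Cre stood under the interferon-inducible Mx1 promoter and only KO mice carried it, so effects of Cre and of the deletion cannot be told apart. Recombination was tested by PCR on marrow, the sorted cells were frozen, and 5 ng of total RNA per mouse was amplified for 1 array.

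Glycolysis turns glucose into pyruvate in the cytosol. Lactate dehydrogenase and the monocarboxylate transporters then dispose of pyruvate as lactate, while the pyruvate dehydrogenase kinases hold back its entry into mitochondria, and the pentose phosphate pathway diverts glucose phosphate towards NADPH and ribose. The hypoxia-inducible factor HIF-1 raises many of these genes when oxygen is low, because prolyl hydroxylases and the VHL ubiquitin ligase no longer destroy its alpha subunit. Blood stem cells live in a poorly oxygenated marrow and are known for a strong reliance on glycolysis, with Hif1a and the Pdk genes among those known to hold that state.

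The letters that HIF binds can be read in the promoters of these genes. The windows run from 250 bases before to 50 after each annotated start, in RefSeq's annotation of GRCm38.p6. All listed genes but Slc2a3 had such an entry, giving 51 windows for 34 genes. The core of the HIF site was searched in the form ACGTG only, on both strands, where the reverse strand reads CACGT. Other forms of the core were not searched. Each palindrome CACGTG, which is also the E-box that other factors bind, counts on both strands at 1 place. The form ACGTG was found in 26 windows (51.0%) of 22 genes, against 19.6% of all 32851 windows. The windows of the listed genes had a median of 20 CG pairs, against 7 over all windows, and among the 8701 windows with at least 20 CG pairs 29.0% held the motif. A match describes the letters only. The windows printed belong to Ldha and Bnip3, textbook HIF targets, to Pgam1 and Pdk3, and to Tpi1, whose window held no match. Pgam1 and Pdk3 were picked because their groups did not overlap once KO replicate 1 was left out. Neither passed the test then (limma adjusted p = 0.964 for each), and a link to HIF was not tested. Capitals mark the motif, and each line reads 5′ to 3′ on the gene's strand.
Ldha, chr7:46845554-46845853, plus strand: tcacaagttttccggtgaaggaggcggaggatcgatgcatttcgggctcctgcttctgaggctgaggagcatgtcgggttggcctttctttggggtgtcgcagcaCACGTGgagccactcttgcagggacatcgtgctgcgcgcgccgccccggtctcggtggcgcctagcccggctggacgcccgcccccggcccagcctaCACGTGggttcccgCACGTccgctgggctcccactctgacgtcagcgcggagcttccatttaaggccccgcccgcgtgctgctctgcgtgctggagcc
Bnip3, chr7:138909457-138909756, minus strand: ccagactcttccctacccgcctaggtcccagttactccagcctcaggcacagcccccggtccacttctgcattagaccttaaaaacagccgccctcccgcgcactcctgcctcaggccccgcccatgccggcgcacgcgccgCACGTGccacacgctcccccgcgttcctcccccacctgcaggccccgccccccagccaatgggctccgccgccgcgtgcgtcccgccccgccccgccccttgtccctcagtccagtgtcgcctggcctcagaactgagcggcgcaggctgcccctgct
Pgam1, chr19:41911621-41911920, plus strand: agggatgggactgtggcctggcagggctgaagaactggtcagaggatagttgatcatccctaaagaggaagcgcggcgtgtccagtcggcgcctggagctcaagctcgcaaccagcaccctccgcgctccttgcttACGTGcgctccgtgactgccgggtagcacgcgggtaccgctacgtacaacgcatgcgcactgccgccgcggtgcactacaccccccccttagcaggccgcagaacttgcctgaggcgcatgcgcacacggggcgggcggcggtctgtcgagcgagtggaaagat
Pdk3, chrX:93832101-93832400, minus strand: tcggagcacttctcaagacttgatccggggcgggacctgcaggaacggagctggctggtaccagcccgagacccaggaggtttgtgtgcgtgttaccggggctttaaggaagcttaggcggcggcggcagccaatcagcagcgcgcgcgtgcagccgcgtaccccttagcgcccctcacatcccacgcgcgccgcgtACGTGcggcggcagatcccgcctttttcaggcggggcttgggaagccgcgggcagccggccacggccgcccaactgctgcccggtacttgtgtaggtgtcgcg
Tpi1, chr6:124814109-124814408, minus strand: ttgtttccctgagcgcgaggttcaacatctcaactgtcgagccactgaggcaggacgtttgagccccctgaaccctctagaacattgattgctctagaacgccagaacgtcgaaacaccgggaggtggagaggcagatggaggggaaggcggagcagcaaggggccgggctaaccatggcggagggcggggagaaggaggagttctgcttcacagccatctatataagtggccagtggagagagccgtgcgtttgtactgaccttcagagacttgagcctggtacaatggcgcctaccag
Ldha held 5 matches at 3 places, Bnip3 held 2 at 1 place, and Pgam1 and Pdk3 held 1 each. Among the genes without a match was Pdk1, also a HIF target.

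**Figure D1:**
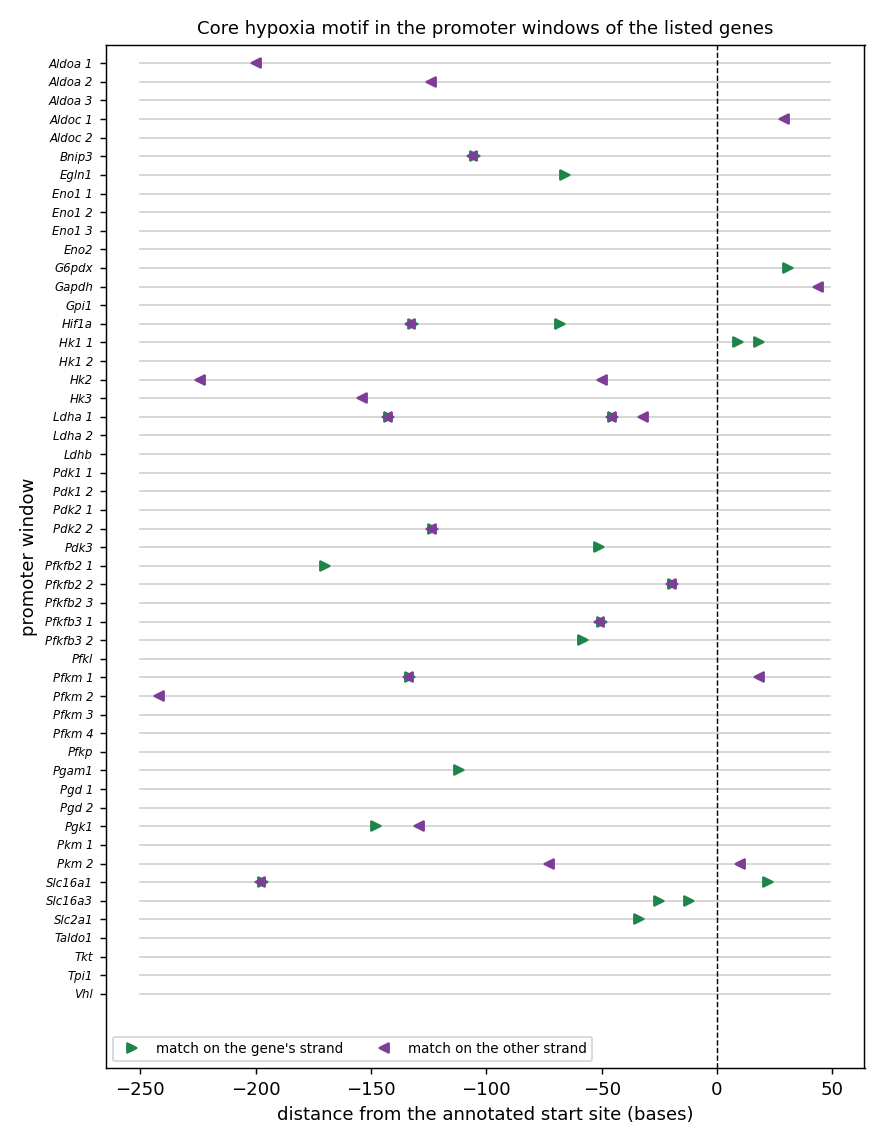
Matches of the core hypoxia motif in the form ACGTG (triangles, by strand) along each promoter window of the listed genes. The x axis gives the distance from the annotated start in bases, with 1 line per window, numbered where a gene has several. Ldha carried 5 matches at 3 places in its first window. The genes with none were Gpi1, Pfkl, Pfkp, Tpi1, Eno1, Eno2, Ldhb, Pdk1, Pgd, Taldo1, Tkt and Vhl.

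The targeted gene followed the labels in every array. Abi1 had 6.11, 5.82, 5.59 and 5.76 in KO replicates 1 to 4 (log2 signal), against 11.65, 11.49, 11.50, 11.56 and 11.53 in WT replicates 1 to 5, a difference of -5.73 (SE 0.095, limma adjusted p = 7.42e-08). It was the 1 gene of 30142 past the threshold of 0.05. All 10 LSK markers that were measured had means above background, while Ly6a, the gene of Sca-1, was not analysed here. The same held for all measured erythroid (7), megakaryocyte (5), mast cell and basophil (6) and cell cycle (5) markers. It also held for 16023 of the 30142 genes, so it does not set LSK cells apart from other marrow cells. The background level of an array was set at percentile 95 of 1717 genes of olfactory and vomeronasal receptors, which gave log2 signals from 5.29 to 5.64. KO replicate 1 and WT replicate 5 stood apart: their median correlations with the other arrays across genes were 0.986 and 0.989, against 0.993 to 0.996 elsewhere. The highest background level was that of KO replicate 1, with 15652 genes above it, against 15876 to 16308 in the others. The p-values measure the spread between mice, and the number of arrays limits the precision.

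None of the 30 measured genes passed the test between KO and WT. The limma adjusted p-values ran from 0.786 to 0.989, with 0.00332% of all genes called at that threshold. No listed gene had an unadjusted p under 0.05 either, a mark reached by 5.01% of all genes, and none had groups that did not overlap, as 0.856% of all genes had. A two-sided exact permutation test, with 126 possible splits, also gave no listed gene a p under 0.05. The mean was higher in KO for 13 genes and lower for 17, so 43.3% were higher, against 63.9% of all genes, and the median log2 difference was -0.029, against 0.034 over all genes. With genes below background left out, the medians were -0.043 for the listed genes and 0.0175 over all. Without KO replicate 1 they were 0.0023 and 0.0067. The size of a change the data allow differed between genes: the interval at the 95% level lay within 0.5 of 0 on either side for 19 of the 30 and within 1 for 29, the exception being Slc2a3. Standard errors ran from 0.028 to 0.33 with a median of 0.12. In sorted populations a lower signal can come from fewer cells of a type or from less RNA per cell, and these cannot be told apart.

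**Figure D2:**
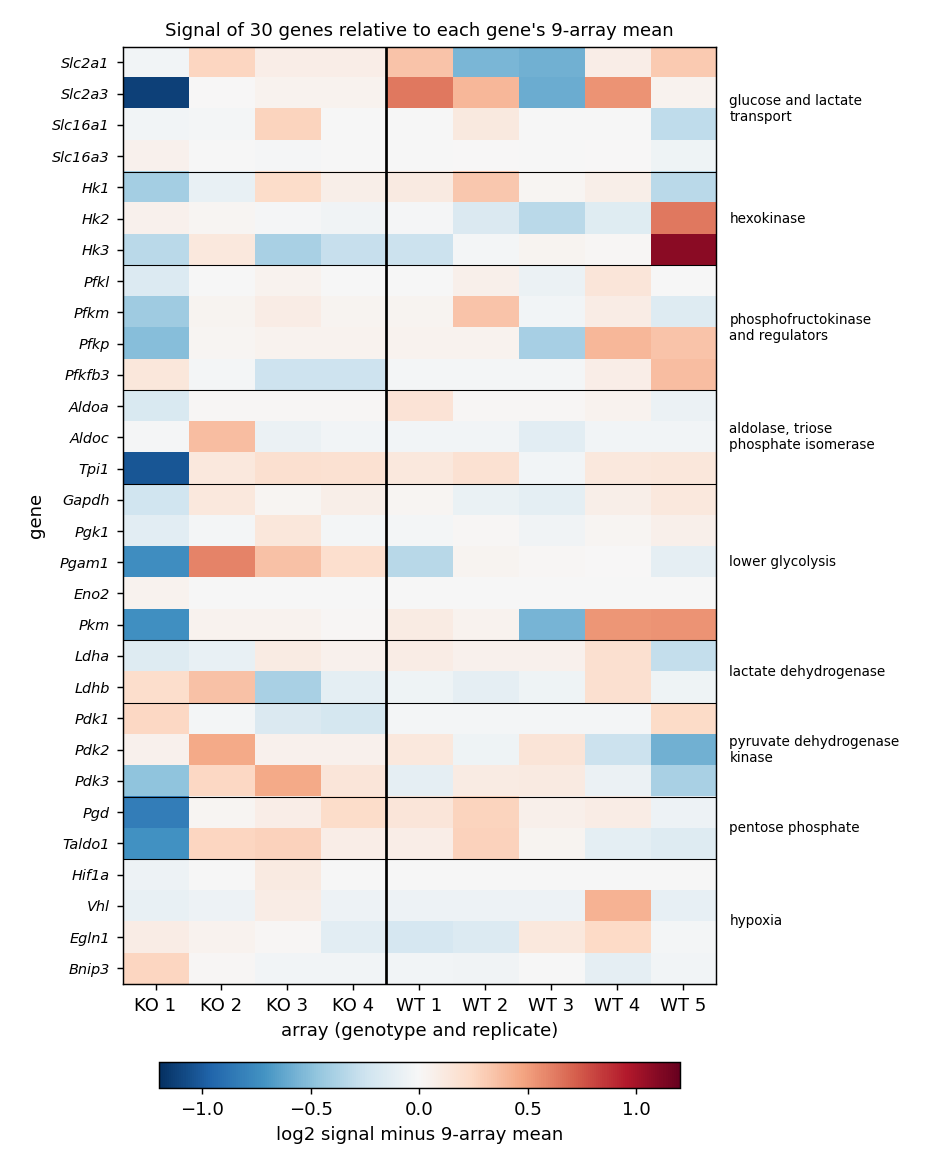
Log2 signal of each measured gene minus its own mean over 9 arrays (colour), with 1 column per array, KO left of WT, and genes grouped by step. KO replicate 1 is the bluest column through phosphofructokinase, triose phosphate isomerase, lower glycolysis and the pentose phosphate genes, and WT replicate 5 is red at Hk2 and Hk3.

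Isoform use was read as signal above or not above background, because signals of different probesets cannot be set against each other. Over 15 families, 49 isoforms were measured, counting related genes outside the 35. Of these, 33 lay above background in all 9 arrays, 14 in none, and 2, Slc2a10 and Slc16a3, in 8 of 9, the exception each time being KO replicate 1. Among glucose transporters, the ubiquitous Slc2a1 and the high-affinity Slc2a3 were above background in all arrays, as were Slc2a6, Slc2a8 and Slc2a9. Slc2a6 was near the background level, 0.25 to 0.85 above it. The liver transporter Slc2a2, the insulin-responsive Slc2a4, the fructose transporter Slc2a5 and Slc2a12 were above background in none. All 3 listed hexokinases and all 3 phosphofructokinase subunits, the liver (Pfkl), muscle (Pfkm) and platelet (Pfkp) types, were above background in every array, and Hkdc1 in none. So were both aldolases measured, Aldoa and Aldoc, and both pyruvate kinase genes, Pkm and the liver and red cell gene Pklr.

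In the later steps, the germ cell genes Gapdhs, Pgk2 and Ldhc and the muscle gene Pgam2 were above background in no array, while Gapdh, Pgk1, Pgam1, Ldha and Ldhb were above it in all. The neuronal enolase Eno2 had a log2 signal of 5.20 in KO replicate 1 and 5.15 in the other 8 arrays, below background in all 9. The muscle enolase Eno3 was above it in all 9, and the main enolase, Eno1, was not analysed here. Of the pyruvate dehydrogenase kinases, Pdk1, Pdk2 and Pdk3 were above background in every array and Pdk4, the kinase known for its rise in fasting, in none. Among lactate carriers, Slc16a1 and Slc16a7 were above background throughout and Slc16a8 in none, and Slc16a3, a carrier known for lactate export from glycolytic cells, lay at 5.51 to 5.61, next to the background level. For the oxygen sensor, Hif1a and Hif3a were above background in all arrays and Epas1, which encodes HIF-2 alpha, in none. Hif3a was near the background level, 0.19 to 0.78 above it, and Hif1a was 3.99 to 4.45 above it. All 3 prolyl hydroxylase genes, Egln1, Egln2 and Egln3, were above it in all.

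**Figure D3:**
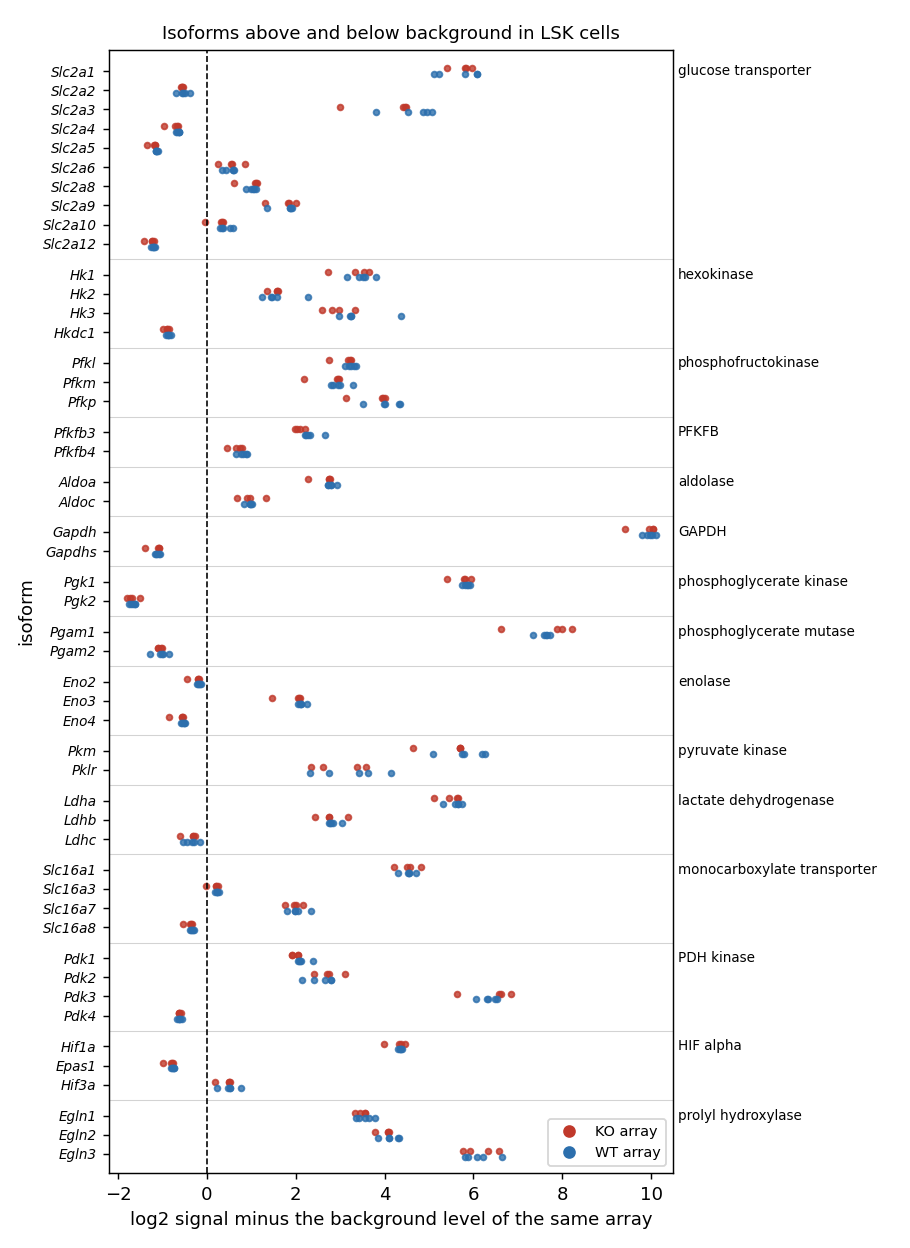
Log2 signal minus the background level of the same array (x axis) for 49 isoforms of 15 families, with 1 point per array, KO above WT, and the dashed line at background. Eno2, Epas1 and Pdk4 lie left of the line in all 9 arrays, and Slc16a3 lies next to it.

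Transport of sugar and lactate held the gene with the widest range over the arrays, 1.76 for Slc2a3. Slc2a3 had log2 signals of 8.64, 9.77, 9.81 and 9.81 in KO, against 10.40, 10.16, 9.17, 10.30 and 9.81 in WT. KO replicate 1 lay far below the other KO arrays, which sat inside the WT range. The difference of -0.46 (SE 0.33, limma adjusted p = 0.786) was the largest of the 30 in size, with an interval from -1.21 to 0.29, and was -0.17 without KO replicate 1. Slc2a1, the basal glucose carrier, had 11.04, 11.33, 11.15 and 11.15 in KO, against 11.41, 10.52, 10.49, 11.15 and 11.38 in WT. WT replicates 2 and 3 were low, all KO arrays lay inside the WT range, and the difference was 0.18 (SE 0.22, limma adjusted p = 0.808). It was 0.053 without WT replicate 3, 0.060 without WT replicate 2 and 0.28 without WT replicate 1. Slc16a1, the widespread lactate carrier, ranged from 9.86 to 10.16 in KO and from 9.59 to 10.01 in WT, a difference of 0.091.

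The hexokinases, which trap glucose in the cell by phosphorylation, turned on single arrays. Hk3, an isoform of white blood cells, had log2 signals of 8.24, 8.69, 8.17 and 8.29 in KO, against 8.31, 8.54, 8.60, 8.58 and 9.65 in WT. WT replicate 5 lay alone above all others, and the groups overlapped below it. The difference was -0.39 (SE 0.26, limma adjusted p = 0.786) and -0.12 once KO replicate 1 and WT replicate 5 were both left out. Hk2, the inducible isoform, was also highest in WT replicate 5, at 7.57, against 6.89 to 6.99 in KO and 6.61 to 6.92 in the other WT arrays. Its group means differed by 0.010, and by 0.17 without WT replicate 5 (limma adjusted p = 0.780). Hk1, the housekeeping isoform, ranged from 8.37 to 9.00 in KO and from 8.45 to 9.10 in WT, a difference of -0.089.

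Phosphofructokinase commits sugar to glycolysis, and the bifunctional enzyme Pfkfb3 makes its activator. All 4 genes measured at this step had a lower mean in KO, with log2 differences of -0.058 for Pfkl, -0.12 for Pfkm, -0.18 for Pfkp and -0.17 for Pfkfb3. None passed the test (limma adjusted p from 0.786 to 0.793). Pfkp had 8.77, 9.31, 9.32 and 9.32 in KO, against 9.32, 9.32, 8.88, 9.68 and 9.62 in WT. KO replicate 1 was the lowest array for Pfkp, as for Pfkl and Pfkm. Without it the differences were -0.013 for Pfkl, -0.0033 for Pfkm and -0.047 for Pfkp. Pfkfb3 went the other way among arrays, with 7.73, 7.57, 7.34 and 7.34 in KO, against 7.57, 7.57, 7.57, 7.67 and 7.96 in WT. KO replicate 1 was its highest KO array, and without that array the difference was -0.25, with an interval from -0.51 to 0.0056 (limma adjusted p = 0.964).

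Aldolase splits the 6-carbon sugar and triose phosphate isomerase joins the products into 1 stream. Tpi1 had log2 signals of 12.71, 13.86, 13.93 and 13.92 in KO, against 13.86, 13.92, 13.70, 13.86 and 13.87 in WT. Its 8 other arrays fell within 0.23 of each other, and KO replicate 1 lay apart below them. The difference was -0.24 (SE 0.24, limma adjusted p = 0.789), and 0.061 without that array. Aldoa ranged from 7.91 to 8.10 in KO and from 8.02 to 8.25 in WT, with KO replicate 1 lowest and a difference of -0.068. Aldoc, the brain aldolase, was 6.70 in KO replicate 2 and 6.21 to 6.32 in the other 8 arrays, a difference of 0.11 (limma adjusted p = 0.786).

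Of the genes above background from Gapdh to pyruvate kinase, Gapdh and Pgk1 varied least between arrays. Gapdh, which makes the first NADH of the pathway, had log2 signals of 15.05, 15.41, 15.31 and 15.36 in KO, against 15.31, 15.21, 15.17, 15.36 and 15.41 in WT. The difference was -0.0095, with an interval from -0.20 to 0.18. The annotation also lists Gapdh beside other symbols on a further probeset, so a copy of the gene may share its signal. Pgk1, the first enzyme to return ATP, has 2 probesets under its symbol. The brighter, TC1200001415.mm.1, names chromosome 12 in its identifier while the gene lies on X, and it ranged from 11.04 to 11.30 in KO and from 11.12 to 11.22 in WT. The other, TC0X00001071.mm.1, ranged from 10.75 to 11.06 in KO and from 10.83 to 11.02 in WT. Both gave small differences, -0.015 on the brighter and -0.023 on the other.

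Pgam1, the mutase that moves the phosphate along the glycerate, had its first KO array at one end of the range and its other KO arrays at the other. It had log2 signals of 12.25, 13.59, 13.35 and 13.20 in KO, against 12.67, 13.03, 13.01, 13 and 12.89 in WT, on TC1900000600.mm.1. KO replicate 1 was the lowest of all 9 arrays and the other 3 KO arrays were the highest. The difference over all arrays was 0.18 (SE 0.25, limma adjusted p = 0.826), and it ran from 0.013 without KO replicate 2 to 0.46 without KO replicate 1. Further probesets list Pgam1 beside other symbols, so copies of the gene may share its signal, and the size of such a share is uncertain. Pkm, pyruvate kinase, had 10.27, 11.05, 11.05 and 11.02 in KO, against 11.11, 11.05, 10.45, 11.54 and 11.55 in WT. KO replicate 1 was again lowest, WT replicate 3 was low as well, and the difference was -0.29 (SE 0.26, limma adjusted p = 0.786), or -0.10 without KO replicate 1. The probesets do not separate the M1 and M2 splice forms.

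The lactate dehydrogenase genes had group means that lay close together. Ldha, the subunit that favours lactate, had log2 signals of 10.74, 10.81, 11 and 10.95 in KO, against 10.99, 10.95, 10.95, 11.09 and 10.61 in WT, a difference of -0.043 with an interval from -0.27 to 0.19. WT replicate 5 was its lowest array. Ldhb, the subunit that favours pyruvate, ranged from 7.79 to 8.53 in KO and from 8.07 to 8.37 in WT, a difference of 0.027.

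**Figure D4:**
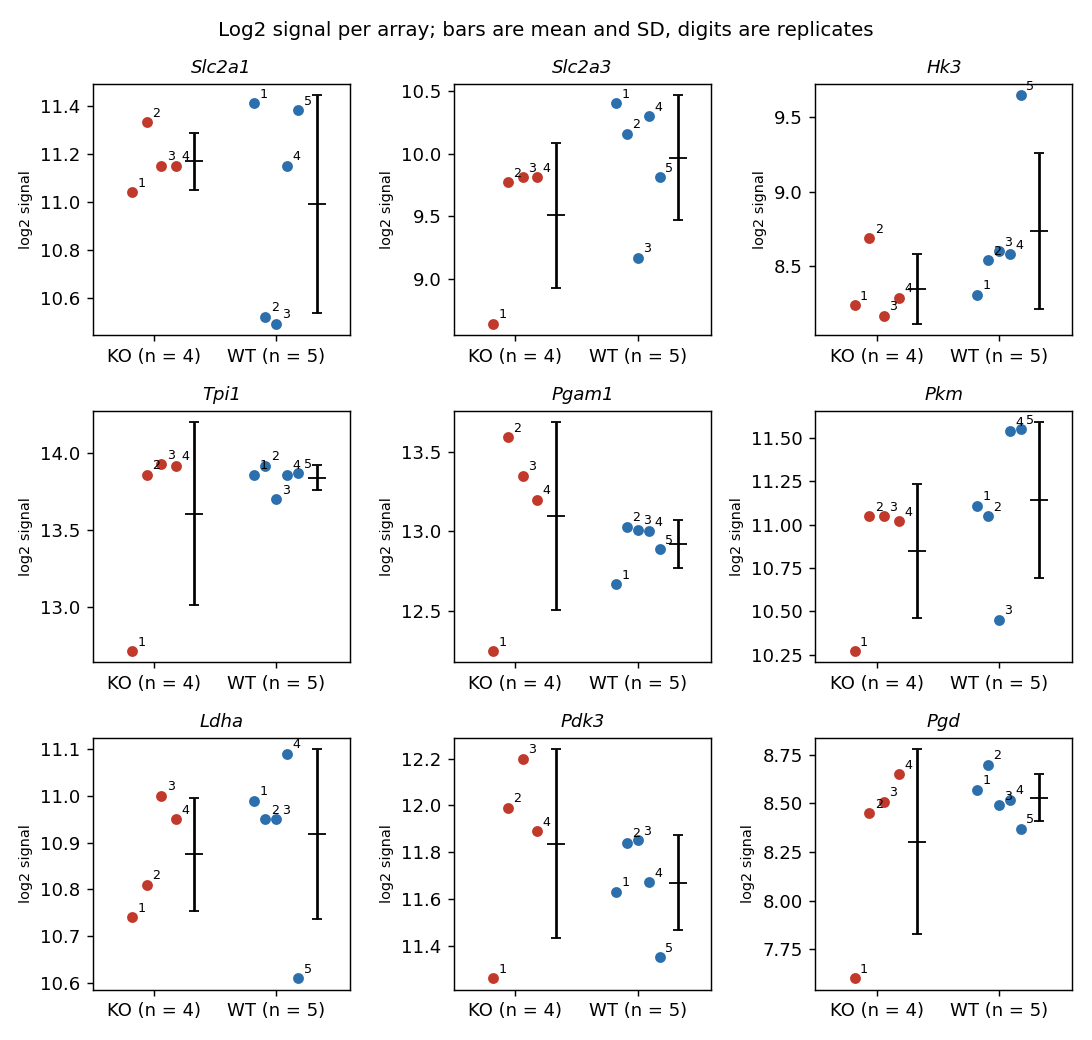
Log2 signal per array for 9 of the genes, KO left of WT, with the mean and SD beside the points and the replicate number at each point. KO replicate 1 is the lowest point for Slc2a3, Tpi1, Pgam1, Pkm, Pdk3 and Pgd, and WT replicate 5 is the highest for Hk3.

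The pyruvate dehydrogenase kinases, which switch off the gate into mitochondria, did not share a direction. Pdk2 had log2 signals of 8.06, 8.46, 8.06 and 8.06 in KO, against 8.13, 7.96, 8.16, 7.75 and 7.43 in WT. The groups overlapped, with WT replicate 5 lowest. Its difference of 0.27 (SE 0.16, limma adjusted p = 0.786) had the smallest unadjusted p of the 30 genes, 0.131 by limma, and was 0.16 without WT replicate 5. Pdk3 had 11.26, 11.99, 12.20 and 11.89 in KO, against 11.63, 11.84, 11.85, 11.67 and 11.35 in WT. As with Pgam1, KO replicate 1 was the lowest of all arrays and the other 3 KO arrays were the highest, and the difference over all arrays was 0.17 (SE 0.19, limma adjusted p = 0.799). It ran from 0.045 without KO replicate 3 to 0.36 without KO replicate 1. Pdk1, a HIF target, was 7.42 in 5 of the arrays and ranged from 7.23 to 7.69 in KO and from 7.42 to 7.67 in WT, a difference of -0.068.

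Of the pentose phosphate genes, 1 of the oxidative arm and 1 of the non-oxidative arm were measured. Pgd, which makes NADPH and the pentose, had log2 signals of 7.60, 8.45, 8.51 and 8.65 in KO, against 8.57, 8.70, 8.49, 8.52 and 8.37 in WT. Taldo1, which returns pentoses to glycolysis, had 10.57, 11.56, 11.58 and 11.38 in KO, against 11.38, 11.58, 11.33, 11.18 and 11.15 in WT. In both genes KO replicate 1 lay below all other arrays, by more than any gap among those. The differences were -0.23 (SE 0.20) for Pgd and -0.052 (SE 0.21) for Taldo1, and without KO replicate 1 they were 0.0067 and 0.18.

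The oxygen-sensing genes had group means within 0.1 of each other on the log2 scale. Hif1a had log2 signals of 9.63, 9.68, 9.80 and 9.68 in KO, against 9.68 in each of the 5 WT arrays. The annotation also lists Hif1a beside other symbols on a further probeset. Equal values in arrays of different mice are common in the deposited table, where 25.8% of all genes, and 13.2% of those above background, hold 1 value in at least 5 of the 9 arrays. They make the spread of such a gene small. Among the listed genes this holds for 6, namely Hif1a, Vhl, Aldoa, Aldoc, Eno2 and Pdk1. Vhl, the ligase subunit that marks the alpha subunit for destruction, ranged from 5.92 to 6.09 in KO and from 5.91 to 6.42 in WT, a difference of -0.058. Egln1, the main oxygen-sensing hydroxylase, ranged from 8.76 to 8.97 in KO and from 8.68 to 9.12 in WT, a difference of 0.0095. Bnip3, a HIF target in mitochondrial turnover, was 7.46 in KO replicate 1 and 7.17 to 7.21 in KO replicates 2 to 4, against 7.09 to 7.20 in WT. Its difference was 0.095 (limma adjusted p = 0.786), and 0.025 without KO replicate 1.

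KO replicate 1 set much of the spread of these genes. Of the 29 genes with a mean above background, it was the lowest array in 15 (51.7%), while it was the lowest in 23.0% of the 16023 genes above background. The 15 were Slc2a3, Hk1, Pfkl, Pfkm, Pfkp, Aldoa, Tpi1, Gapdh, Pgk1, Pgam1, Pkm, Pdk3, Pgd, Taldo1 and Hif1a. It was the highest in 3, Slc16a3, Pdk1 and Bnip3, against 27.1% of all such genes. By step, the mean deviation in this array from the 9-array means was -0.78 for the pentose phosphate genes, -0.41 for aldolase and triose phosphate isomerase and -0.36 for lower glycolysis. It was 0.027 for lactate dehydrogenase and 0.051 for the hypoxia genes, means over members on both sides. Ldha was second lowest in this array and Ldhb second highest, and Hif1a was lowest and Bnip3 highest. The median deviation of the 29 genes there was -0.16, against 0.0056 over all genes above background.

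Other measures moved with that array. Its mean log2 signal over 10 LSK markers was 11.16, below the 11.32 to 11.66 of the other arrays, and Kit was 13.82, against 14.39 to 14.78. Its 5 cell cycle markers averaged 11.59, against 12.09 to 12.81. Its 8 neutrophil markers averaged 8.64. Of that list, Mmp8 and Retnlg were not above background by their means over all 9 arrays. The same list averaged 8.48 in KO replicate 2, which was the lowest array for none of the 29 genes, and 5.57 to 6.96 in the other 7. The part of RNA quality, cell cycle and cell make-up in the low glycolytic signals of KO replicate 1 was not tested. Between the groups, 5 B cell markers, 3 of them above background and Pax5 and Ms4a1 not, had means of 5.81 to 5.98 in KO and 5.56 to 5.77 in WT. This was the 1 list of 9 whose groups did not overlap, and its part in the differences of the listed genes was not tested.

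Without KO replicate 1 the listed genes lay nearer to an even split between the groups. That array was the lowest in 15 of the 29 listed genes above background, Pgam1 and Pdk3 among them. Leaving it out had to raise the KO means of those 15, so the counts without it only describe the remaining arrays. Of the 30 genes 16 then had a higher mean in KO, the median difference was 0.0023, against 0.0067 over all genes, and no listed gene passed the test (lowest limma adjusted p 0.964). The 2 listed genes with an unadjusted limma p under 0.05 in the higher direction were Pgam1 and Pdk3, and the share of all genes with this was 2.45%. The same 2 genes had groups that did not overlap, KO above WT, as 1.25% of all genes had. Pgam1 differed by 0.46 (SE 0.11), with 3 KO arrays at 13.20 to 13.59, against 5 WT arrays at 12.67 to 13.03. Pdk3 differed by 0.36 (SE 0.13), with 3 KO arrays at 11.89 to 12.20, against 5 WT arrays at 11.35 to 11.85. In either direction these were also the 2 listed genes with such a p, against 3.71% of all genes. With WT replicate 5 left out too, 3 listed genes had one, against 3.78% of all genes, and none passed after adjustment (limma adjusted p = 0.901 for each). They were Pgam1 at 0.45, Pdk3 at 0.28 and, in the other direction, Pfkfb3 at -0.18, with an interval from -0.34 to -0.015. With all 9 arrays weighted by their fit, 4 listed genes had such a p, against 6.3% of all genes, namely Pgam1 at 0.42, Pdk3 at 0.30, Pfkfb3 at -0.23 and Pdk1 at -0.15 (limma adjusted p = 0.783 for each). KO replicate 1 had the lowest weight there, 0.111, so this setting comes near to leaving it out. For Pfkfb3 and Pdk1 it was the highest KO array, so less weight on it had to lower their KO means. These settings are therefore not separate evidence for the named genes.

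**Figure D5:**
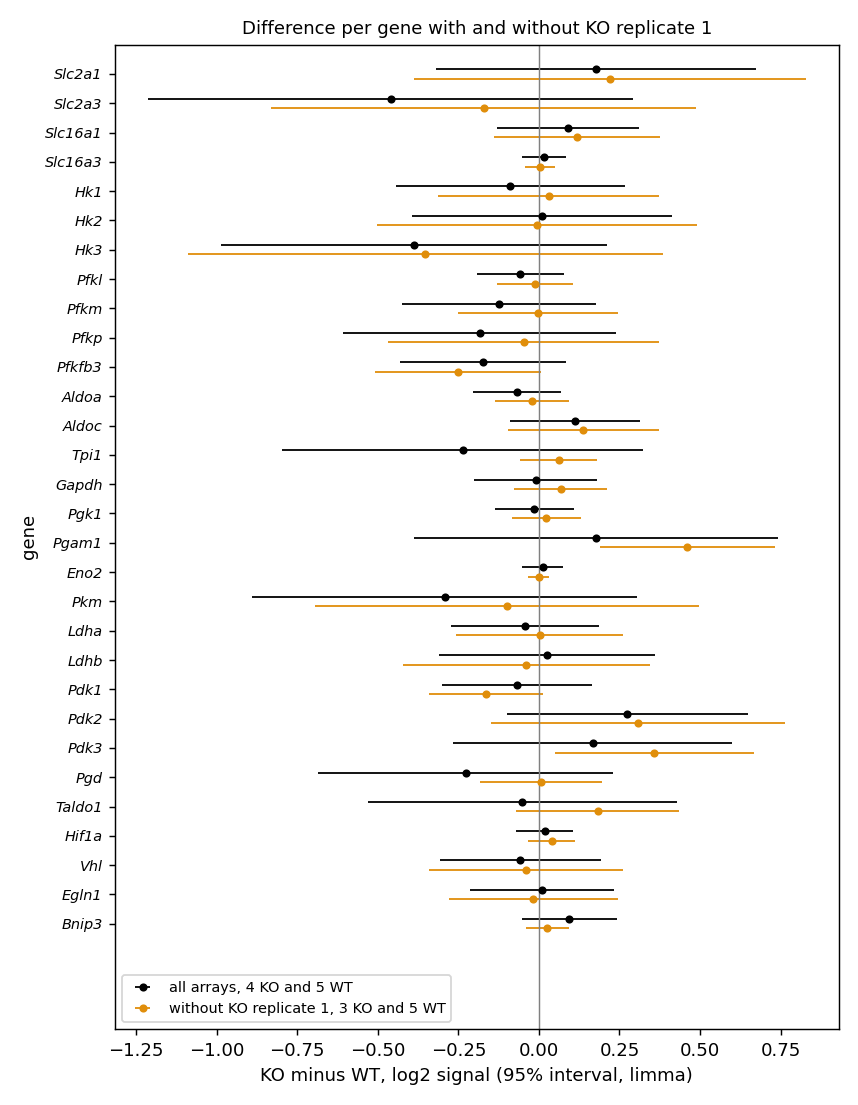
Difference KO minus WT in log2 signal (points) with limma's 95% interval (bars) for the 30 measured genes, over all arrays (black) and without KO replicate 1 (orange). Every black interval spans 0, and of the orange ones those of Pgam1, at 0.46, and Pdk3, at 0.36, do not.

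The rest of the pathway, 84 further genes, was measured for 78 and gave no gene past the test in either direction. Means were higher in KO for 43, lower for 34 and equal for 1. Other isoforms of glycolysis were higher in 5 and lower in 6, other transporters and their chaperones higher in 8, lower in 3 and equal in 1, and other pentose phosphate genes higher in 4 and lower in 5. The genes of pyruvate entry into mitochondria were higher in 4 and lower in 7, and those of gluconeogenesis higher in 2 and lower in 4. Other parts of the HIF system were higher in 7 and lower in 3, and HIF targets outside glycolysis were higher in 13 and lower in 6, beside 63.9% higher over all genes. An unadjusted limma p under 0.05 was reached by 2 of the 78 genes (2.56%), below the 5.01% of all genes, and by 0 of them without KO replicate 1.

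Those 2 genes both had a higher mean in KO. Elob, the elongin B that links VHL to its ligase, had log2 signals of 12.99, 12.60, 12.33 and 12.18 in KO, against 11.53, 12.19, 12.32, 11.69 and 11.39 in WT. The groups touched, since the lowest KO array lay below 2 WT arrays. The difference was 0.70 (SE 0.24, limma adjusted p = 0.786). Ddit4, a stress-induced brake on mTORC1 that HIF can raise, had 7.15, 7.05, 6.34 and 6.51 in KO, against 6.82, 5.75, 5.83, 5.93 and 6.08 in WT. WT replicate 1 lay inside the KO range, and the difference was 0.68 (SE 0.26, limma adjusted p = 0.786). Without KO replicate 1 the differences were 0.55 for Elob (limma unadjusted p = 0.0603) and 0.55 for Ddit4 (limma unadjusted p = 0.0908).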

How the data were processed

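The members and gene lists were chosen with earlier results of these data known. The deposited table holds 72688 probesets for 9 Affymetrix arrays, and its values, from 1.84 to 19.45, were taken as log2 signals summarised by the authors. Partek 6.6 is named in the submitters' processing notes, and log base, background correction and normalization were not given in the sources used here. Every difference printed rests on the log2 reading. After 6732 control probesets were set aside, 30604 probesets carried exactly 1 symbol in the platform annotation (827 symbols updated through their identifiers to RefSeq's GRCm38.p6), and the brightest stood for each of 30142 genes. Groups came from the labels, which give no batch. The comparison of KO with WT used limma 3.58.1, run in R 4.3.3 (linear model without covariates, eBayes with no trend, Benjamini-Hochberg over all genes, threshold 0.05), tested on simulated data, and with exact two-sided permutation, whose smallest possible p is 0.00794. Figures were drawn with matplotlib 3.10.9. Promoter sequences are RefSeq's. All listed genes are named. Outside them are named Abi1 and Kit, up to 2 members per further list and direction with an unadjusted p under 0.05, and isoforms and markers by their background status. Adpgk and the values of Pklr were added after they were seen. Alternatives were quantile normalization, centring, a filter on dim genes, the mean of a gene's probesets, an intensity trend, array weights, the replicate number as a block, each array left out, and KO replicate 1 and WT replicate 5 left out together.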

Additional observations from a re-analysis of the deposited data

Results flagged for a closer look

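In 22 of the 58 groups of arrays with any spread, the highest or lowest array of a listed gene stood apart from its group by Dixon's criterion. For values without ties, chance marks about 1 group in 20. Equal values are common here, and that rate does not hold for them. Where all other arrays of a group were equal, as for Eno2 in KO and Aldoc in WT, any deviating array was flagged. The arrays share mice across genes, so the flags are not independent. Of the 22, 9 were in KO replicate 1 and 5 in WT replicate 5, with 2 each in KO replicates 2 and 3 and WT replicates 3 and 4 and 0 in the other arrays.

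In KO replicate 1 the log2 signal was low for Slc2a3 (8.64), Pfkm (7.82), Pfkp (8.77), Aldoa (7.91), Tpi1 (12.71) and Pkm (10.27). It was high there for Bnip3 (7.46) and, next to or below background, for Slc16a3 (5.61) and Eno2 (5.20). In KO replicate 2, Aldoc (6.70) and Pdk2 (8.46) were high, and in KO replicate 3, Slc16a1 (10.16) and Vhl (6.09) were high.

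In WT replicate 5, Hk3 (9.65), Pfkfb3 (7.96) and Pdk1 (7.67) were high and Slc16a1 (9.59) and Slc16a3 (5.51) low. In WT replicate 3, Tpi1 (13.70) and Aldoc (6.21) were low, the second against 6.30 in all 4 other WT arrays. In WT replicate 4, Ldhb (8.37) and Vhl (6.42) were high.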

How the results depend on the processing

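No listed gene passed the test under any of 17 alternatives (lowest limma adjusted p 0.665), and the median difference of the 30 stayed between -0.086 and 0.0023. Of 509 gene results recomputed, 461 kept their direction; 14 genes kept it throughout, and 48 results, in 16 genes with differences of up to 0.29 in size, turned. Array weights (0.111 for KO replicate 1 and 0.486 for WT replicate 5) called 2 genes of all in place of 1. They turned Egln1 (-0.0068), Gapdh (0.065), Ldhb (-0.085), Pgk1 (0.026), Slc16a3 (-0.0027), Taldo1 (0.11) and Tpi1 (0.037). Centring moved the median of all genes to -0.024, left 7 listed genes higher in KO instead of 13, and turned Egln1 (-0.048), Eno2 (-0.044), Hif1a (-0.040), Hk2 (-0.047), Ldhb (-0.030) and Slc16a3 (-0.041). Quantile normalization, with 10 higher, turned Eno2 (-0.043), Hk2 (-0.025) and Slc16a3 (-0.042). Leaving out KO replicate 1 and WT replicate 5 turned Egln1 (-0.022), Gapdh (0.098), Ldhb (-0.048), Pfkp (0.017), Pgk1 (0.036), Pkm (0.0025), Slc16a3 (-0.0083), Taldo1 (0.14) and Tpi1 (0.068). With single arrays left out, the ranges that crossed 0 were Egln1 -0.040 to 0.070, Gapdh -0.052 to 0.068, Hif1a -0.017 to 0.040, Hk1 -0.18 to 0.031, Hk2 -0.070 to 0.17, Ldha -0.12 to 0.0020, Ldhb -0.086 to 0.16, Pgd -0.34 to 0.0067, Pgk1 -0.063 to 0.023, Taldo1 -0.15 to 0.18, Tpi1 -0.35 to 0.061 and Vhl -0.097 to 0.040. The cause of the changes was not tested. The labels do not say whether equal replicate numbers mark pairs. Same-numbered arrays correlated at -0.14, 0.14, -0.011 and 0.23, and 2 of the 4 KO arrays correlated best with their own number. Whether same-numbered arrays share a batch was not tested. The replicate block gave a median of -0.010, called 1 gene of all and no listed gene, and turned Gapdh (0.020). Signal over background limits Slc16a3 and Eno2.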

Other observations

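Pklr, the pyruvate kinase gene of liver and red cells, was picked after its values were seen. Its log2 signals were 7.98, 7.97, 8.93 and 8.71 in KO, against 8.95, 9.45, 8.79, 8.09 and 7.62 in WT, and the difference of -0.18 (SE 0.39) missed the threshold (limma adjusted p = 0.884). The array lowest in Pklr, WT replicate 5, also had the lowest mean log2 signal over 7 erythroid markers, 6.41, against 8.64 to 9.77 in KO and 8.85 to 9.94 in the other WT arrays. The highest array in Pklr, WT replicate 2, had the highest erythroid mean, 9.94. In WT replicate 5, 5 megakaryocyte markers averaged 7.91, against 9.91 to 10.29 in KO and 9.56 to 10.25 in the other WT arrays. Its mean over the 3 hexokinases lay 0.47 above their 9-array means, the highest of any array at that step. Hk2 (7.57) and Hk3 (9.65) carried it, while Hk1 was 8.45 there, the lowest of the WT arrays.

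Adpgk, the ADP-dependent glucokinase, was also picked after its values were seen. It was 7.18 in KO replicate 1 and 8.35 to 8.81 in KO replicates 2 to 4, against 8.55 to 8.98 in WT, a difference of -0.44 (SE 0.31, limma adjusted p = 0.786), or -0.089 without KO replicate 1. Of 6 T and NK cell markers, 2 were above background and Cd3e, Cd4, Cd8a and Ncr1 were not, with list means of 5.04 to 5.27 in KO and 4.94 to 5.11 in WT. The means of 7 monocyte and macrophage markers ran from 7.32 to 7.83 in KO and from 7.17 to 7.93 in WT, and those of 6 mast cell and basophil markers from 9.07 to 9.36 in KO and from 7.97 to 9.09 in WT.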
